A study of Mus musculus with 15 samples.

Results

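The genes described here encode the channels, transporters and pump subunit that move sodium, chloride and water across the lung's alveolar surface: Scnn1a, Scnn1b, Scnn1g, Cftr, Atp1b1, Slc12a2, Aqp1, Aqp3 and Aqp5. They were found as every non-control probe of the array whose gene name in the scanner files is one of these symbols. This gave 9 of the 34832 gene names on the array and 10 of its 55681 probes, with 2 probes for Aqp5 and 1 for each of the other 8 genes. RNA came from cultures of primary mouse lung fibroblasts, the mesenchymal cells that lay down the lung's matrix, and of primary alveolar type II (ATII) cells, the alveolar epithelial cells that secrete surfactant. Cells of each type received vehicle (1x PBS, a salt buffer) or 1 mM β-aminopropionitrile (BAPN), an inhibitor of the collagen cross-linking lysyl oxidases, for 24 h. Vehicle was given to 4 samples of each cell type, and BAPN to 3 fibroblast and 4 ATII samples, with 1 array per sample. The study's question was the effect of BAPN on transcription in these cells. Before treatment all fibroblasts went through 3 or more passages and a 24 h starvation, whereas all ATII cells spent 3 days at an air-liquid interface; the 2 cell types and the 2 ways of culture are confounded and cannot be told apart. The labels give no strain or age, and they do not say whether arrays of a group came from separate animals or cultures, and each p-value thus reflects only the spread among these arrays, which may be technical.

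The alveolus is kept nearly dry by active salt transport, with water following by osmosis. Sodium enters epithelial cells from the airspace through the epithelial sodium channel, built of the alpha, beta and gamma subunits that Scnn1a, Scnn1b and Scnn1g encode, and leaves at the opposite side through the sodium pump, to which Atp1b1 contributes the beta subunit. Chloride passes through channels such as the one encoded by Cftr and is loaded into cells by the cotransporter encoded by Slc12a2. Aquaporins are water channels; in the lung, aquaporin 5 is known from the apical membrane of type I cells and aquaporin 1 from capillary endothelium.

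Values are normalized levels: log2 of the spot's processed intensity minus the 75th percentile of the array, which puts that percentile at 0, and a step of 1 is a doubling of intensity. A level describes 1 probe and cannot be set against the level of another probe. Tests were made with limma across all probes on all 15 arrays, with Benjamini-Hochberg adjustment over all probes tested and a threshold of 0.05, and a probe was tested where at least 3 arrays of the groups compared were well above background.

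Every statement on a gene rests on where its probe binds, so the last 30 bases of each of 9 probes are shown, 5′ to 3′, with the polyadenylation signal AATAAA in capitals.
Scnn1a probe: ctttgctcatttttgtatccttccgttcta
Scnn1b probe: agagttacaaccattgtcagtgcctcgttt
Scnn1g probe: gtttataAATAAAgttttattgataatcga
Cftr probe: gaagaagaagttcaagaaacccgtctctag
Atp1b1 probe: ttacactagcttctgcatttaataggttag
Aqp1 probe: tcttatggtaagaaAATAAAggacaatgac
Aqp3 probe: gtgtaatatgtttctgttataagatagaca
Aqp5 probe A_55_P1990121: ttatttctggttaagatggggcggaggatg
Aqp5 probe A_55_P2071236: gccagaggaggactgggaagatcatagaga
AATAAA lies within 3 of the 10 member probes and within 10.1% of all 55681 probes. The distance of the probes from the 3′ ends of their transcripts was not measured. On mouse build mm9, which the file headers name, the probe of Scnn1a covers chr6:125294843-125294902 on the + strand. The probes of Scnn1g (chr7:128911932-128911991) and Scnn1b (chr7:129061584-129061643) lie on the + strand of the same chromosome. Those of Cftr (chr6:18270974-18271033) and Aqp1 (chr6:55298480-55298539) are on the + strand of chromosome 6, and those of Atp1b1 (chr1:166368263-166368322) and Aqp3 (chr4:41039962-41040021) on the - strand of theirs. The Aqp5 probes cover chr15:99425138-99425197 and, nearer to the start of the transcript, chr15:99424655-99424714, both on the + strand. All 10 probes carry an accession that the RefSeq gene table gives to the same gene.

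On each array 65.2% to 71.2% of non-control spots were well above background and 0 were saturated. Arrays of a group correlated with r between 0.983 and 0.996 over all probes. The arrays lay on 2 slides, each with all 4 groups: fibroblast vehicle, fibroblast BAPN, ATII vehicle and ATII BAPN had 2, 1, 2 and 3 arrays on slide 1, and 2, 2, 2 and 1 on slide 2.

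The labels were checked against marker genes. In ATII cultures 9 of 11 ATII markers were above background on all arrays, among them Sftpc, the gene of surfactant protein C, at 0.22 to 2.12. In each fibroblast group 6 of the 11 were also above background on all arrays. Slc34a2, the gene of a phosphate transporter of ATII cells, was well above background on 0 of 15 arrays. The 5 epithelial markers were above background on all ATII arrays, with summed levels (the sum of the unlogged levels, on a scale where an array's 75th percentile is 1) of 543 to 713 in vehicle and 641 to 828 in BAPN, against 3.2 to 16.7 and 3.47 to 17.2 in fibroblasts. All 8 fibroblast markers were also above background on all ATII arrays, with sums of 558 to 796 and 590 to 821, against 679 to 962 and 696 to 1080 in fibroblasts. Summed ATII markers were 40.3 to 43.3 in vehicle-treated ATII cells and 28.6 to 32.4 in fibroblasts, since Lamp3 and Etv5 were bright in both. The sums in vehicle-treated ATII cells and fibroblasts were 79.6 to 105 and 127 to 164 for 9 type I markers, 4.31 to 11.9 and 3.62 to 5.19 for 8 airway markers, and 0.735 to 1.25 and 0.191 to 0.293 for 3 ionocyte markers. They were 88.5 to 138 and 0.417 to 14.3 for 3 mesothelial markers, 22.8 to 37.5 and 58.1 to 68.1 for 7 leukocyte markers, 9.19 to 13.4 and 9.85 to 12.5 for 8 endothelial markers, and 0.107 to 0.228 and 0.1 to 0.183 for 4 erythroid markers. A few bright genes dominate such sums: Pdpn (mean 6.23) and Igfbp2 (5.41, against −1.15 in ATII cells) for type I markers in vehicle-treated fibroblasts. Counted by gene in vehicle, 3 of 8 type I markers tested were past the threshold and higher in ATII cells, and 2 lower. Atp6v1c2 dominates the ionocyte sum in ATII cells, and of the 3 ionocyte markers 1 was higher and 1 lower. Of all probes tested, 14.7% were higher and 18.8% lower. Markers of other cell types thus differed between the cultures compared. Their part in the results was not tested. In such bulk samples, fewer cells of a type and less RNA per cell cannot be told apart.

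The alpha subunit of the sodium channel was clearly present in ATII cells. In vehicle-treated ATII cells the level of Scnn1a was 1.56, 0.91, 1.50 and 0.19 on replicates 1 to 4, and in BAPN-treated ATII cells 1.87, 1.57, −0.02 and 0.78 on replicates 1, 3, 4 and 5. Fibroblasts had −3.62, −3.90, −3.66 and −3.53 with vehicle and −3.45, −3.49 and −3.57 with BAPN. All 8 ATII arrays lay above all 7 fibroblast arrays, and within ATII cells both arrays numbered 4 were the lowest of their group. Both lay on slide 2, which held 1 BAPN-treated ATII array. The other vehicle-treated ATII array on that slide, replicate 2, was the next lowest in vehicle. The part of the slide in this spread was not tested. Scnn1a was 26.35-fold higher in ATII cells in vehicle (log2 difference 4.72 ± 0.37, SE; 1.04 ± 0.64 against −3.68 ± 0.16, SD, n = 4 each; limma, adjusted p = 4.5e-07). In BAPN it was 23.5-fold higher (4.56 ± 0.40; adjusted p = 1.59e-06). Of all probes tested in vehicle, 33.5% passed the threshold (14.7% higher and 18.8% lower in ATII cells), and in BAPN 31% passed (13.8% higher and 17.2% lower), so a difference between these cultures is common.

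The beta subunit followed the same direction at low signal. Scnn1b was above background on all ATII arrays, at −3.34, −3.84, −2.93 and −4.43 in vehicle and −2.99, −2.17, −4.96 and −3.79 in BAPN. On all 7 fibroblast arrays its probe was not well above background (−7.10, −7.52, −7.60 and −7.21 in vehicle; −7.64, −6.66 and −6.59 in BAPN). In the main processing its level in ATII cells was therefore at least 3.24-fold higher in vehicle (limma, adjusted p = 6.08e-05). In BAPN it was at least 5.45-fold higher (adjusted p = 0.000236). Such a bound sets the ATII mean against the lowest signal that was well above background on each fibroblast array. It is tied to that signal and to the main background subtraction, here and for the genes below. Arrays numbered 4, both on slide 2, were again the lowest of their group. They were also lowest for Ager, a type I marker (−1.91 and −2.00 against −0.60 to 0.35 on the other 6). The same held for Bpifa1, an airway secretory gene (−4.98 and −5.12 against −3.28 to −0.72). Summed airway markers were lowest on them too (4.31 in vehicle and 6.02 in BAPN). Summed type I markers were instead highest on them: 105 against 79.6 to 104 in vehicle, and 118 against 92.5 to 106 in BAPN. Bright Pdpn and Emp2 dominate that sum (mean levels 6.06 and 4.39 in vehicle-treated ATII cells), to which Ager (mean −0.58) adds little. The part of other cell types or of the slide in this spread was not tested. Background subtraction mattered for the size of the Scnn1b difference. With normexp background correction the log2 difference was 0.76 in vehicle and 1.07 in BAPN, past the threshold both times. Both are smaller than the bounds above, which thus do not hold under that correction.

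The gamma subunit was not detected. The probe of Scnn1g was not well above background on any of the 15 arrays, with levels from −7.89 to −6.98, and was not tested. At this signal no level of Scnn1g can be given for either cell type, which is not a statement that the gamma transcript was absent.

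**Figure D1:**
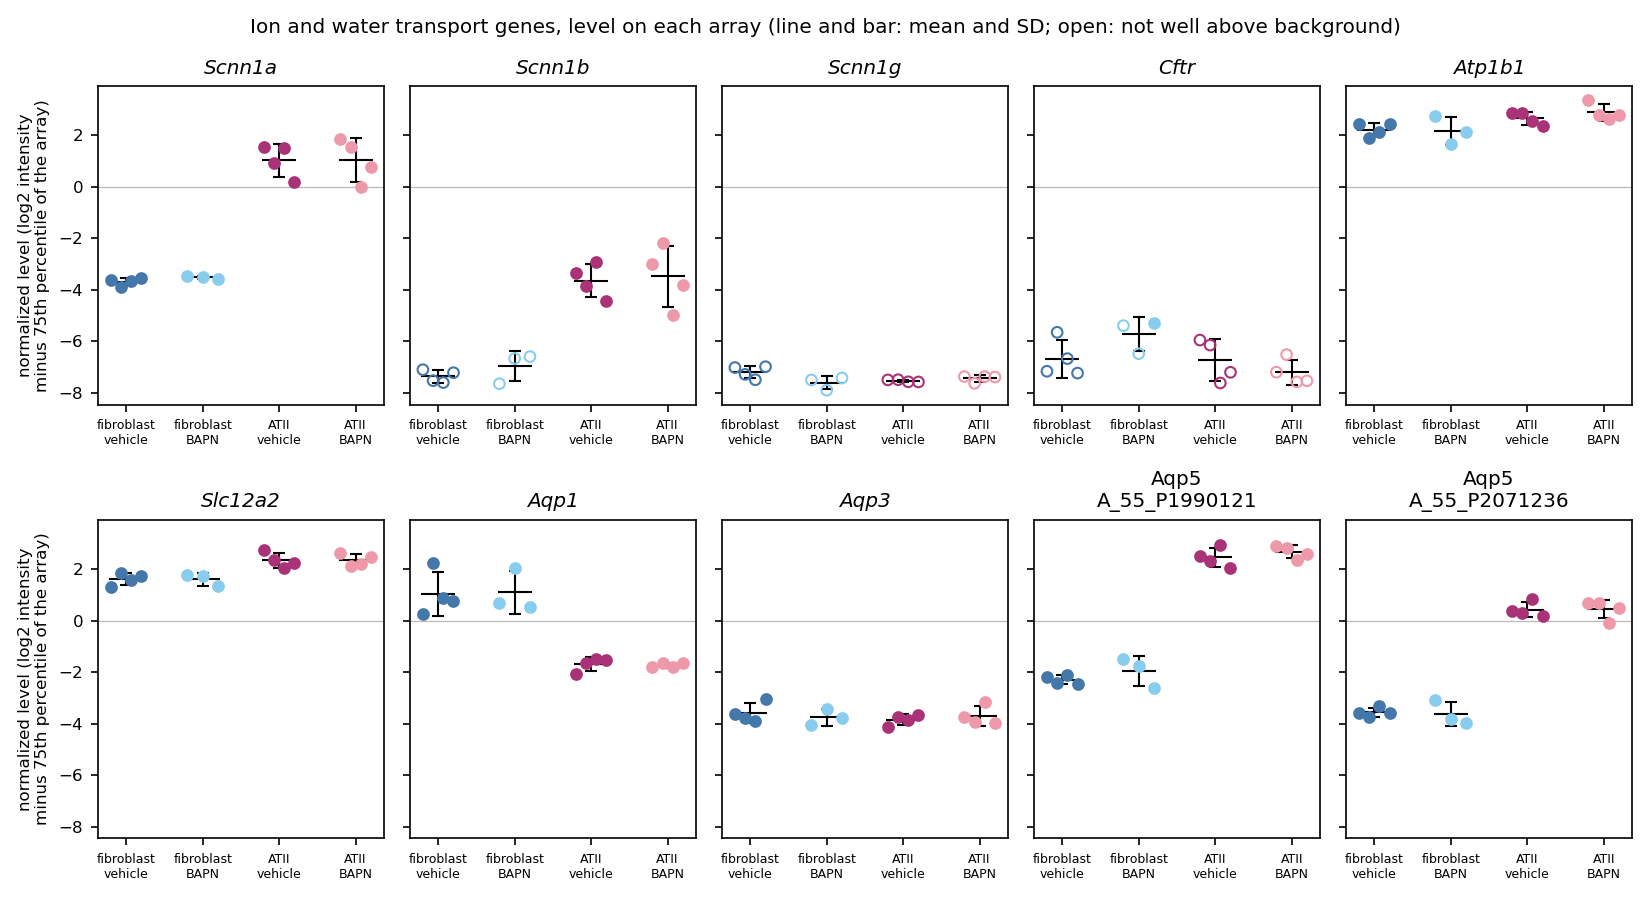
Normalized level (log2 intensity minus the 75th percentile of the array) of each of the 10 probes on each array of the 4 groups; points are arrays, the line and bar are the mean and SD, and open points are not well above background. Scnn1a, Scnn1b and both probes of Aqp5 are higher on all 8 ATII arrays than on all 7 fibroblast arrays, Aqp1 is lower, and Scnn1g is open throughout.

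Scnn1b and Scnn1g are neighbours: in RefSeq on build GRCm38.p6 their starts lie 131 kb apart on the + strand of chromosome 7. The 250 bases before each start are shown because one gene was measured in ATII cells and the other was not, with CACTTG, a core of the sites bound by the lung epithelial factor NKX2-1, in capitals. They cover chr7:121864788-121865037 for Scnn1b and chr7:121734229-121734478 for Scnn1g.
Scnn1b: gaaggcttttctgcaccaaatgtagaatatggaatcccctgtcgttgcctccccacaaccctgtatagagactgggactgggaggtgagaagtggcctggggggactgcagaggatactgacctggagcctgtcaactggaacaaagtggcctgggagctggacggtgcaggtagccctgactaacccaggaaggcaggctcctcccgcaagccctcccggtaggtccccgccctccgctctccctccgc
Scnn1g: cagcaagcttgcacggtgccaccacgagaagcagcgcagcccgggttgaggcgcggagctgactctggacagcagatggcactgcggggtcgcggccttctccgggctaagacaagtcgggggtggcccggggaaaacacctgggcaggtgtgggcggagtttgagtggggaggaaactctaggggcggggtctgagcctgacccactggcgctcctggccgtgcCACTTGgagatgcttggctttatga
On both strands, CACTTG occurred once before Scnn1g, beginning 25 bases from the start, and in 11.6% of 32851 promoter windows of this length. AGAACA (part of the glucocorticoid receptor's site, in 16.1% of windows), AACCGG (grainyhead-like factors, 5.62%), TGTTTAC (forkhead factors, 3.17%) and TATAAA (the TATA box, 12.4%) occurred in neither. Of the 7 members whose windows were searched, the others had none of the 5 motifs except Aqp3, with TATAAA 29 bases before its start. A match is a description of these letters only.

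Chloride transport genes were split. The probe of Cftr, the cystic fibrosis chloride channel, was well above background on 1 of 15 arrays, fibroblast BAPN replicate 4 at −5.27, and its other levels ran from −7.61 to −5.39, so it was not tested. Slc12a2, the sodium-potassium-chloride cotransporter that loads chloride into the cell, was measured on every array. It had levels of 2.75, 2.34, 2.04 and 2.25 in vehicle-treated ATII cells and 2.62, 2.11, 2.19 and 2.46 in BAPN-treated ones, against 1.31, 1.86, 1.57 and 1.73 in fibroblasts with vehicle and 1.78, 1.71 and 1.33 with BAPN. The lowest ATII array lay above the highest fibroblast array. Slc12a2 was 1.66-fold higher in ATII cells in vehicle (log2 difference 0.73 ± 0.18, SE; adjusted p = 0.0063) and 1.67-fold higher in BAPN (0.74 ± 0.19; adjusted p = 0.0102). The call was lost with slide 1 or slide 2 alone (vehicle 0.95 and 0.50, adjusted p = 0.0505 and 0.113; BAPN 0.61 and 0.67, adjusted p = 0.19 and 0.142) and, in BAPN, without fibroblast BAPN replicate 4 (0.60, adjusted p = 0.0554).

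Atp1b1, the beta subunit that brings the sodium pump to the membrane, was well expressed in both cell types. Its levels were 2.86, 2.87, 2.57 and 2.36 in vehicle-treated and 3.36, 2.81, 2.62 and 2.79 in BAPN-treated ATII cells, and 2.44, 1.90, 2.12 and 2.43 in vehicle-treated and 2.75, 1.67 and 2.13 in BAPN-treated fibroblasts. The ranges of the cell types overlapped under both conditions. The difference was 0.44 ± 0.23 in vehicle (adjusted p = 0.168) and 0.72 ± 0.25, or 1.64-fold, in BAPN (adjusted p = 0.043), the only cell type call among the members that was made in 1 condition alone; whether the 2 differences differ is the interaction tested below (adjusted p = 0.766). The BAPN call held in 13 of 29 alternatives and had an adjusted p of 0.21 without fibroblast BAPN replicate 2 (0.46), its lowest array.

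The aquaporins went separate ways. Both probes of Aqp5 were far higher in ATII cells. Probe A_55_P1990121 had levels of 2.52, 2.33, 2.94 and 2.06 in vehicle and 2.91, 2.83, 2.35 and 2.60 in BAPN in ATII cells, against −2.18, −2.41, −2.12 and −2.46 in vehicle and −1.50, −1.76 and −2.61 in BAPN in fibroblasts. Probe A_55_P2071236 had 0.37, 0.29, 0.85 and 0.17 and then 0.70, 0.68, −0.08 and 0.49 in ATII cells, against −3.59, −3.75, −3.33 and −3.59 and then −3.08, −3.83 and −3.97 in fibroblasts. On both probes the groups of the cell types were apart on every array. In vehicle Aqp5 was 27.0-fold higher by the first probe (log2 difference 4.76 ± 0.24, SE; limma, adjusted p = 6.56e-09) and 15.9-fold by the second (3.99 ± 0.22; adjusted p = 2.02e-08). In BAPN it was 24.7-fold and 16.8-fold higher (adjusted p = 2.28e-08 and 4.3e-08).

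Aqp1 went the other way and was higher in fibroblasts. Its levels there were 0.27, 2.23, 0.86 and 0.77 with vehicle and 0.70, 2.04 and 0.53 with BAPN, against −2.07, −1.65, −1.47 and −1.51 and then −1.81, −1.66, −1.82 and −1.64 in ATII cells. ATII arrays lay close together and below every fibroblast array. Aqp1 was 6.53-fold lower in ATII cells in vehicle (log2 difference −2.71 ± 0.38, SE; adjusted p = 9.88e-05) and 7.07-fold lower in BAPN (−2.82 ± 0.41; adjusted p = 0.000156). The BAPN call was lost on slide 2 alone (−3.10, adjusted p = 0.0803).

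The spread of Aqp1 in fibroblasts came from the arrays numbered 2, the highest in both conditions. These arrays also stood apart in marker genes. Wt1, a mesothelial transcription factor gene, was −4.42 and −4.04 on them and 1.09 to 3.00 on the other 5 fibroblast arrays, and Upk3b, another mesothelial gene, was −4.54 and −4.61 against −0.90 to 1.41. Summed mesothelial markers were 0.417 and 0.409 on these arrays and 4.78 to 16.6 on the others. The macrophage genes Tyrobp (2.79 and 3.17 against 1.46 to 2.00) and C1qa (1.52 and 1.40 against −0.39 to 0.64) were highest on them, though the sum over 7 leukocyte markers, which bright Itgam dominates, was 65.9 and 67.6 against 58.1 to 76.3. The part of other cell types in the Aqp1 result was not tested. With both arrays left out, an alternative chosen after the data were seen, Aqp1 was still lower in ATII cells (−2.31 in vehicle, adjusted p = 2.11e-06; −2.35 in BAPN, adjusted p = 6.95e-06). Of 8 endothelial markers, which stand for a usual site of Aqp1 in lung, 4 were above background on all vehicle-treated fibroblast arrays and 2 on none. Across the fibroblast arrays Kdr ranged from 2.51 to 3.58 and Pecam1 from −2.56 to −1.80, and Tie1 was at background throughout. The summed endothelial markers of fibroblasts and ATII cells overlapped in vehicle (given above) and were 6.09 to 8.65 and 9.72 to 11.9 in BAPN.

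**Figure D2:**
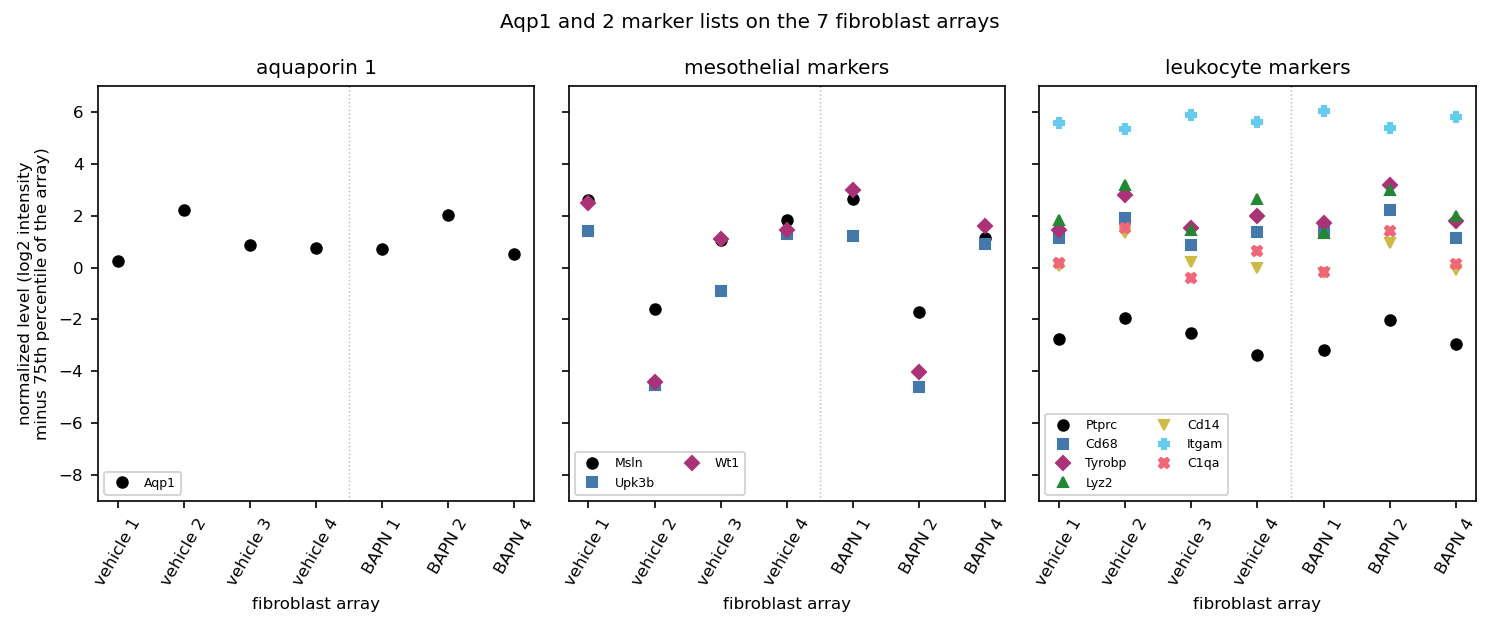
Normalized level (log2 intensity minus the 75th percentile of the array) of Aqp1, of 3 mesothelial markers and of 7 leukocyte markers on each of the 7 fibroblast arrays, with a dotted line between vehicle and BAPN. On vehicle 2 and BAPN 2, Aqp1 is at its highest (2.23 and 2.04) and Wt1, Upk3b and Msln are at their lowest.

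Aqp3, a channel for water and glycerol known from airway basal cells, was alike in range in the cell types. Its levels were −3.62, −3.79, −3.88 and −3.06 in vehicle-treated and −4.05, −3.43 and −3.80 in BAPN-treated fibroblasts, and −4.14, −3.73, −3.88 and −3.67 and then −3.76, −3.94, −3.15 and −3.99 in ATII cells. The groups overlapped. The difference was −0.27 in vehicle (95% interval −0.75 to 0.22; adjusted p = 0.411) and 0.05 in BAPN (−0.47 to 0.57; adjusted p = 0.915), so both intervals exclude a 2-fold difference.

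Counted by gene, with the brighter Aqp5 probe for its gene, 7 of the 9 members could be tested between cell types. In vehicle 4 were called higher in ATII cells and 1 lower, beside 14.7% higher and 18.8% lower of all probes tested. In BAPN 5 were called higher and 1 lower, beside 13.8% and 17.2%. Among those higher in both conditions is Scnn1b, which was not well above background on any fibroblast array. It was tested through its ATII arrays alone, which fixed its direction. The call made in BAPN alone was that of Atp1b1, which held in 13 of 29 alternatives. The median log2 difference over the members tested was 0.73 in vehicle and 0.74 in BAPN, beside −0.15 and −0.01 over all probes tested. Quantile scaling moved the median of all probes in vehicle to −0.01, and every called member kept its direction under it. These members were chosen with earlier results in view, so the counts describe them and set nothing apart.

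The question of the study was the effect of BAPN, and no member changed past the threshold in either cell type. In fibroblasts 6 members were tested, 0 were called and 0 had an unadjusted p under 0.05; log2 differences ran from −0.17 for Aqp3 to 0.34 for Aqp5, and adjusted p from 0.444 to 0.986 (limma). Of all probes, 12.5% were called in that comparison (1.92% higher and 10.6% lower), and 10067 had an unadjusted p under 0.05. Of the probes called, 93.9% lay on the right side of the array, where 1 of the 10 member probes lies (described below). The share over all probes is thus not like for like with the count of members. For 5 of the 6 members the 95% interval lay inside a 2-fold change; Scnn1a, at 0.17, had an interval of −0.69 to 1.03.

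In ATII cells 7 members were tested, 0 were called and 0 had an unadjusted p under 0.05, with log2 differences from −0.06 for Aqp1 to 0.23 for Atp1b1 and adjusted p from 0.657 to 0.996 (limma). Here 0% of all probes were called, and 4060 of 38559 had an unadjusted p under 0.05. Intervals lay inside a 2-fold change for 6 of the 7; that of Scnn1b, at 0.16, was −0.91 to 1.23. The effect of BAPN in ATII cells minus that in fibroblasts was called for 0 of 7 members, with values from −0.24 to 0.31 and adjusted p from 0.71 to 0.992, beside 0% of 41163 probes (5834 with an unadjusted p under 0.05; limma). A p above the threshold does not show that BAPN left these transcripts alone; the intervals give the sizes that these arrays exclude.

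**Figure D3:**
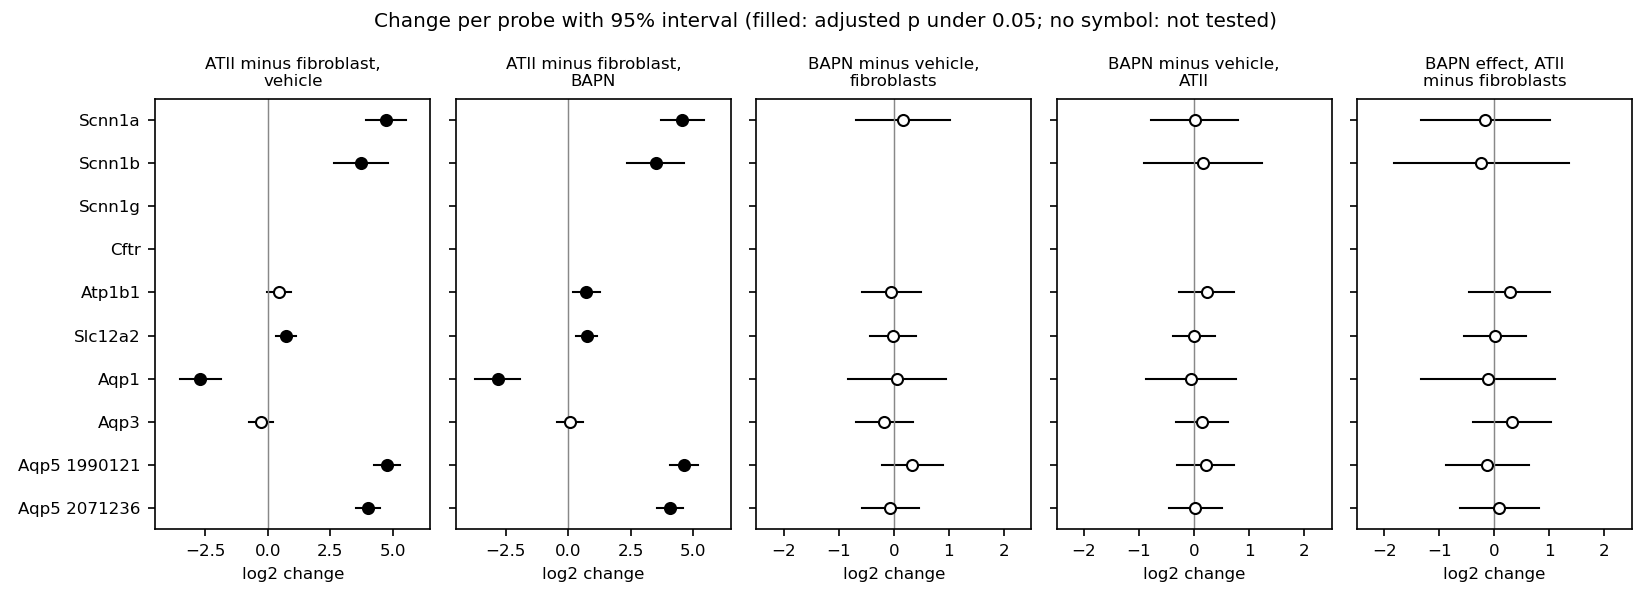
Log2 difference with its 95% interval for each probe in the 5 comparisons, filled where the adjusted p was under 0.05 and absent where the probe was not tested; the fitted value of Scnn1b between cell types is no fold, since its probe was not above background in fibroblasts. The cell type panels have filled symbols on both sides of 0, and all symbols of the 3 BAPN panels are open and lie within 0.34 of 0.

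Where a probe lies on the array bears on the fibroblast comparison. Of the probes called there, 93.9% lay in array columns above 82, on the right side, which held 50% of those tested. Of the member probes 1 of 10 lies on that side, Aqp5 probe A_55_P1990121 in column 128. After a correction for spot position, this probe was higher with BAPN in fibroblasts (log2 difference 1.01, adjusted p = 0.0387), beside 0.34 ± 0.26 without it (adjusted p = 0.444), while 2174 probes were called (712 higher and 1462 lower, against 742 and 4100 before). The other Aqp5 probe, in column 69, had −0.06 ± 0.24 uncorrected (limma, adjusted p = 0.906). Its value after the correction is not given here, so the Aqp5 probes are not compared under that setting. With both fibroblast arrays numbered 2 left out, 5 probes in all were called, none of them a member.

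The members are part of a wider set of genes, and 67 others of the same transport system were read from a list by role; 59 were tested between the vehicle-treated cell types, 25 were higher in ATII cells and 9 lower, with a median of 0.18, beside 14.7% of all probes higher and 18.8% lower. In BAPN, 22 were higher and 7 lower of 59, with a median of 0.34, beside 13.8% and 17.2% of all probes. Genes not above background on any fibroblast array compared were tested through their ATII arrays alone, which fixed their direction as higher. On slide 1 and slide 2 alone, 19 and 18 were called in vehicle, and on slide 2 alone 9 in BAPN. The largest differences in BAPN were those of Kcnk1 (at least 137-fold higher), St14 (log2 difference 6.97), Slc26a9 (above background on 1 of 3 fibroblast arrays, so that no fold is given), Tmprss2 (at least 21.9-fold higher), Spint1 (5.50) and Hsd11b2 (at least 14.9-fold higher), and, lower in ATII cells, Sgk1 (−2.34), Kcnj15 (−2.10), Nr3c1 (−1.56), Nedd4l (−1.44), Atp1b3 (−0.65) and Clcn2 (−0.47), with adjusted p from 8.89e-10 to 0.0115; the roles of those that also lead in vehicle follow.

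Proteases that cleave and activate the sodium channel, and their inhibitors, were nearly all higher in ATII cells: 6 of 7 in vehicle and 7 of 7 in BAPN, beside 14.7% and 13.8% of all probes higher. Of the 7, Tmprss2 and Tmprss4 were well above background on 0 of 4 vehicle and 0 of 3 BAPN fibroblast arrays. They were tested through their ATII arrays alone, which fixed their direction. St14, which encodes the membrane protease matriptase, was 73.5-fold higher (6.20 ± 0.24, SE; adjusted p = 9.07e-10), and Spint1, the gene of an inhibitor of matriptase, 26.2-fold (4.71 ± 0.34; adjusted p = 2.16e-07). The level of Tmprss2, another membrane protease gene, exceeded that of fibroblasts at least 14-fold (adjusted p = 8.79e-10). Prss8, which encodes the channel-activating protease prostasin, was 2.82-fold higher (1.50 ± 0.22; adjusted p = 0.00013).

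Regulators of the channel were divided, with 4 of 15 higher and 4 lower in vehicle, and 2 and 4 in BAPN; 33.5% of all probes were called in vehicle and 31% in BAPN, and these counts are not read as a result about the role. Sgk1, a kinase that keeps the channel at the membrane, was 3.80-fold lower in ATII cells (−1.93 ± 0.19; adjusted p = 4.57e-06), and Nedd4l, the ubiquitin ligase that removes it, was 2.07-fold lower (−1.05 ± 0.17; adjusted p = 0.000363). Nr3c1, the glucocorticoid receptor gene, was 2.37-fold lower (adjusted p = 3.75e-06). The steroid-inactivating enzyme gene Hsd11b2 was 10.2-fold higher (3.34 ± 0.24; adjusted p = 2.22e-07), with 3 of 4 fibroblast arrays above background.

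Of 19 tested anion and cation transporters and channels, 10 were higher in ATII cells and 2 lower in vehicle, and 8 and 2 in BAPN. Of all probes, 14.7% were higher and 18.8% lower in vehicle, and 13.8% and 17.2% in BAPN. Kcnk1, Slc26a9 and Asic1 were not well above background on any vehicle-treated fibroblast array. In vehicle they were tested through their ATII arrays alone, which fixed their direction. The level of the potassium channel gene Kcnk1 was higher by at least 95.7-fold (adjusted p = 7.84e-10). That of Slc26a9, a chloride channel gene of airway epithelium, was higher by at least 26.5-fold (adjusted p = 6.3e-06). Kcnq1, another potassium channel gene, was higher too, with a level of −2.07 ± 0.46 in ATII cells against −6.51 ± 1.07 in fibroblasts (SD, n = 4 each; limma, adjusted p = 0.000119), and since 1 of 4 fibroblast arrays was above background no fold is given. Kcnj15 was 4.61-fold lower (−2.21 ± 0.30; adjusted p = 6.77e-05).

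The other sodium pump genes gave 2 higher and 2 lower of 9 in vehicle and 3 and 1 in BAPN. Of the 6 other aquaporins tested, 2 were higher and 1 lower in vehicle, the lower one being Aqp11 (−1.32 ± 0.35; adjusted p = 0.0104), and 1 was higher in BAPN. With 33.5% of all probes called in vehicle and 31% in BAPN, these small counts of pump genes and aquaporins are not read as a result about either role. Of 3 carbonic anhydrases 1 was higher in each condition, Car2 (3.48 ± 0.39 in vehicle; adjusted p = 1.27e-05).

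**Figure D4:**
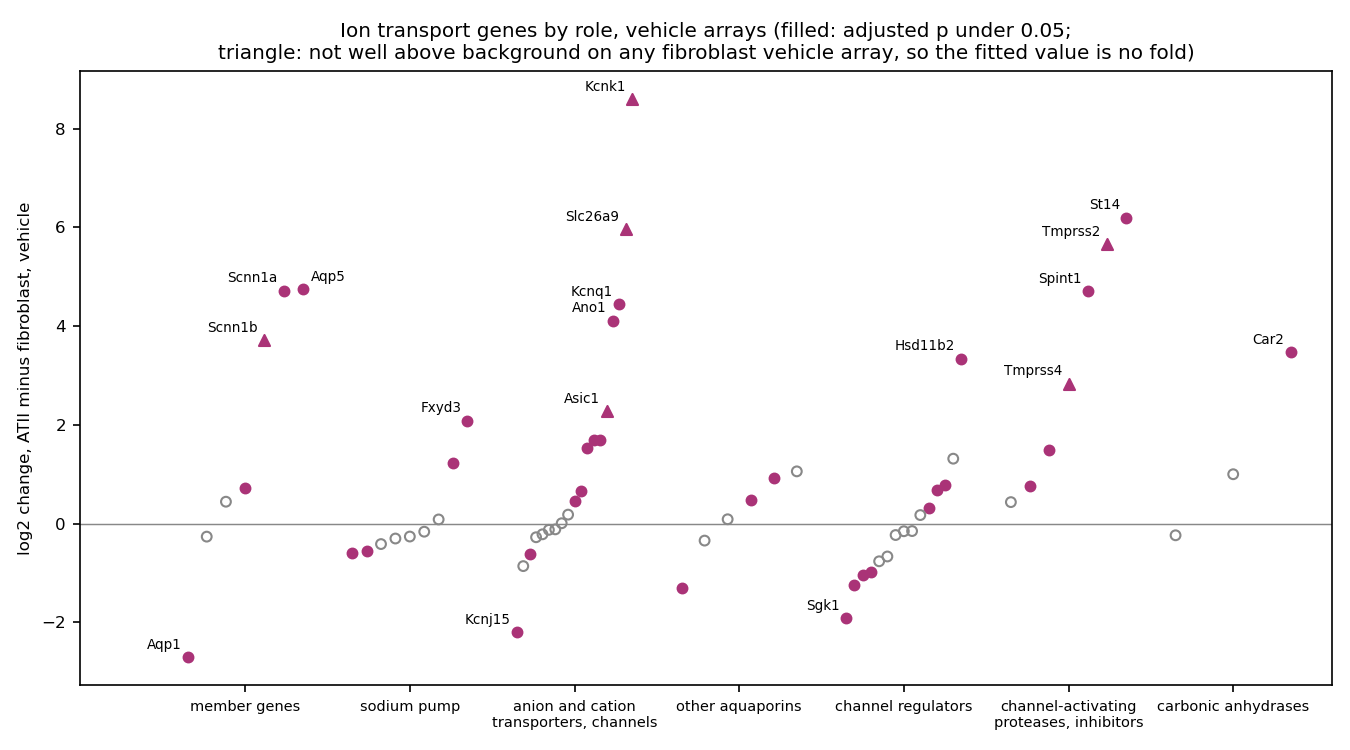
Log2 difference of vehicle-treated ATII cells minus fibroblasts for each tested member and each tested gene of the transport list, by role; filled symbols have an adjusted p under 0.05, and triangles mark probes not above background on any fibroblast vehicle array. The proteases and inhibitors all lie above 0, while the channel regulators spread to both sides with Sgk1 lowest at −1.93.

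With BAPN, 0 of 59 tested genes of the list were called in ATII cells, and on slide 2 alone, which held 1 BAPN array, 6 were. In fibroblasts 7 of 52 were lower and 0 higher. This is near the share over all probes, of which 12.5% were called (10.6% lower), so the count is no result about the list. Among the 7 were Aqp11 (log2 difference −1.55), Hsd11b2 (at least 1.7-fold lower, at background with BAPN), Aqp8 (−1.43), Fxyd3 (−1.28), Aqp4 (−0.85) and Fxyd1 (−0.78), with adjusted p from 0.00718 to 0.0417. All 7 lie in array columns 110 to 150, on the right side, which held 27 of the 52 tested genes, and 0 of 25 on the left side were called. The count was 4 with the replicate number as a block, 3 with the position correction, 1 on slide 1 alone and 0 without both fibroblast arrays numbered 2; single arrays left out gave 2 (vehicle 2, vehicle 4 or BAPN 4) and 3 (BAPN 2) among their values of 2 to 8. The part of spot position in these calls was not tested.

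For each tested member, the probes of other genes nearest in pattern were sought by the root mean square difference of levels over the 15 arrays, each probe centred on its own mean. Scnn1a was nearest to Slc6a14, an amino acid transporter gene of epithelia (0.30, where Scnn1a itself ranged over 5.77), and to Polr2l (0.32). Aqp5 was nearest to Gpd1 (0.22 against a range of 5.55) and Efna1 (0.30), and Aqp1 to Limch1 (0.22 against 4.30) and Atf7 (0.31). Scnn1b was nearest to Kcne2, a potassium channel subunit gene, and Ager (0.49 and 0.50 against 5.47). For the members with little range the nearest probes were Ldhb and Traf3 for Atp1b1 (0.13 and 0.18), Ptma and Cd9 for Slc12a2 (0.13 and 0.15), and Phgdh and Rps16 for Aqp3 (0.17 each). All 15 arrays share the large difference between the cell types, so these distances are a description.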

How the data were processed

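Spot intensity was read from the deposited scanner output, which per the file headers came from Agilent Feature Extraction 10.7.3.1 (1 colour, Cy3) with background subtraction and a spatial trend removed. The authors' deposited table of log2 values for these arrays, used as an alternative, was quantile normalized: its sorted columns differed by at most 0.0032. The statistical test the authors used is not given in the sources used here. Spots marked as outliers were left out, and 469 probes without a value on every array were removed, which left 55212. limma 3.58.1 (R 4.3.3) was fitted to log2 intensity minus the array's 75th percentile, with a mean per group, 11 residual degrees of freedom and empirical Bayes moderation. Errors beside differences are standard errors (SE) of this fit.

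Groups came from the labels. A replacement array of BAPN-treated ATII cells with no number of its own is called replicate 5. No array is labelled fibroblast BAPN number 3 or ATII BAPN number 2. Same-numbered vehicle-treated fibroblast and ATII arrays deviated together from their group means (r from 0.20 to 0.364 over 4 pairs, 2 of them best with their own number). By a limit of 0.1 this was taken as a pairing. It comes from the data, since the labels give no reason for shared numbers. The arrays of each such pair also lay on the same slide, and the highest correlation with another number was 0.234 to 0.316. A shared number and a shared slide thus cannot be told apart here. The main fit has no block for either, and both blocks are among the alternatives. Alternatives were background correction, scaling, the deposited table, filters on dim probes, slide, replicate number, the arrays fitted, spot position, the features tested, and each array left out. Scripts were tested on simulated data. Members and gene lists were chosen with earlier results of these data known. Of the transport list, up to 6 genes called in each direction with the largest changes are named, and Nedd4l, Sgk1 and Prss8; some genes the rule names are not reported here; Hsd11b2 between vehicle-treated cell types, Car2, and Fxyd1 under BAPN were named beyond this rule, after their values were seen. For each tested member the 2 nearest probes in pattern are named. Marker genes in the label check were named after their values were seen. RefSeq (GRCm38.p6) gave promoters. Files were read with pandas 2.3.3 in Python 3.11.15, and plots drawn with matplotlib 3.10.9.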

Additional observations from a re-analysis of the deposited data

Results flagged for a closer look

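Of 30 groups of 4 arrays checked over the member probes, 1 held an array whose gap to the nearest of the others took up an unusually large share of the range (Dixon's test; chance gives about 1 in 20). It was Scnn1g in BAPN-treated ATII cells, where replicate 3 was at −7.63 and the other 3 arrays were between −7.38 and −7.36, a gap of 0.927 of the range. All 4 values were not well above background, so they have no order as transcript levels.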

How the results depend on the processing

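The directions of Scnn1a, Scnn1b, Slc12a2, Aqp1 and Aqp5 between the cell types held under every alternative that gave a value (27 to 29 each). In vehicle 5 members were called; 3 were called on slide 1 alone (8171 probes of all) and 3 on slide 2 alone (6199). In BAPN 6 were called, and 2 on slide 2 alone (2457), which held 1 BAPN-treated ATII array. With fewer arrays, a probe also met the filter of 3 arrays less often: Scnn1b was not tested in vehicle on either slide. For BAPN in fibroblasts the count of 0 became 1 after the correction for spot position, Aqp5; the cause was not tested. Leaving out each array gave 5 called members throughout in vehicle, 4 to 6 in BAPN and 0 for each BAPN effect.

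For the other comparisons the replicate number was not taken as a pairing. Correlations of same-numbered arrays ran from −0.027 to 0.288 between vehicle- and BAPN-treated fibroblasts and from −0.015 to 0.408 in ATII cells. These were over 3 pairs each, with 1 best matched by its own number in either. Between the BAPN-treated cell types they ran from 0.037 to 0.20 over 2 pairs. Summed mesothelial markers of fibroblasts did follow the number: 14.3, 0.417 and 8.78 with vehicle on numbers 1, 2 and 4, and 16.6, 0.409 and 7.12 with BAPN. The labels do not say whether same-numbered fibroblast arrays share a source, and the main fit has no block for it. With the replicate number as a block, 5 members were called in vehicle (11995 probes), 5 in BAPN (8904; Atp1b1 at 0.71, adjusted p = 0.0563) and 0 for BAPN in fibroblasts (1794), BAPN in ATII cells (0) and their difference (0); the block changed no call of a member other than that of Atp1b1.

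Over all probes, BAPN in fibroblasts gave 5559 calls on slide 2, 576 on slide 1, 2982 with its own arrays alone, and 1603 to 6120 with an array left out. BAPN in ATII cells gave 3284 on slide 2 and 1 without BAPN replicate 1; the difference between cell types gave 128 on slide 1 and 632 without ATII BAPN replicate 4. Signal over background limits Scnn1g, Cftr and Scnn1b.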
